A study of Homo sapiens with 4 samples.

Results

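The genes described here encode the LKB1 kinase complex and the AMP-activated protein kinase (AMPK) that it switches on. They were chosen by name, as rows of the 4 count tables whose gene symbol is CAB39, CAB39L, STK11, STRADA, STRADB, PRKAA1, PRKAA2, PRKAB1, PRKAB2 or PRKAG1. Of the 10 symbols, 9 were found among the 19192 genes of the tables, and STRADA was not analysed here. CAB39L drew attention to this set because its mRNA and its ribosome footprints differed in opposite directions between the lines. Those CAB39L ratios are therefore given as a description.

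LKB1, encoded by STK11, is a tumour suppressor kinase that is active only when bound to a STRAD pseudokinase (STRADA or STRADB) and to the scaffold protein MO25 (CAB39 or its paralogue CAB39L). The active complex phosphorylates the catalytic alpha subunit of AMPK and of a family of related kinases. AMPK is a trimer of an alpha, a beta and a gamma subunit that senses a rise in AMP and ADP, shuts down lipid and protein synthesis and favours catabolism. In the intestine, inherited loss of STK11 causes the polyps of Peutz-Jeghers syndrome.

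RNA fragments and ribosome footprints (the stretches of mRNA shielded by a ribosome) were sequenced from derivatives of SW480, a human colorectal adenocarcinoma line. The OE-labelled line carries the genotype label LIN28B OE, and the knockout-labelled line carries LIN28B OE+IMP1-/- knockout, so overexpression of LIN28B is shared by both. Each line gave 1 RNA and 1 footprint library, each made from 3 pooled culture plates, with total counts of 5429224 and 6813372 in RNA and 2732760 and 3260262 in footprints (OE-labelled first). The cell line field of the OE-labelled RNA library reads SW840, and whether each line is a single clone is not given in the sources used here.

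There are no replicates, so no p-value is given, and every interval is a 95% interval for counting error alone. Ratios are knockout-labelled over OE-labelled on a log2 scale. IGF2BP1, the gene of IMP1, was higher where its knockout is labelled (log2 ratio 0.79 in mRNA and 1.03 in footprints). LIN28B, labelled as overexpressed in both lines, was lower there (-2.43 and -2.31). All directions are thus between libraries that carry these labels. Of 8 markers of colorectal epithelium, 7 reached the minimum mean count of 50 in RNA and KRT20 was at 0 counts. The markers summed to 10026 and 5160 CPM, counts scaled to the library total. The sum does not hold for each marker, as CDH1 was higher in the knockout-labelled line (log2 ratio 0.89 in mRNA and 1.11 in footprints). Of 11 markers of blood, fibroblasts, endothelium and muscle, PTPRC and COL1A2 were among those at 0, and the summed level was 41.6 and 72.8 CPM. The minimum was reached by 2, the blood marker CD68 and 1 muscle marker. CD68 was higher in the knockout-labelled line (log2 ratio 1.04 in mRNA and 1.28 in footprints). The muscle markers summed to 23.8 and 32.9 CPM. The part of these markers of other cell types in the results was not tested.

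Whether reads can be assigned to one paralogue depends on how alike the coding sequences are, so the longest identical stretch of each pair is shown, in capitals, with 9 flanking bases on each side in lower case (GENCODE release 29 transcripts, GRCh38, 5′ to 3′).
CAB39: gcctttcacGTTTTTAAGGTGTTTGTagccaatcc
CAB39L: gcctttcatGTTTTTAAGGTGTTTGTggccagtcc
PRKAA1: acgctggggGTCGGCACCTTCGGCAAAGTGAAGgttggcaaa
PRKAA2: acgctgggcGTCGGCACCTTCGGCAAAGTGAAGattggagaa
PRKAB1: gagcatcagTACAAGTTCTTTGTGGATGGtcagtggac
PRKAB2: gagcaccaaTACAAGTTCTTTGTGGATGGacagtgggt

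The coding sequences of CAB39 and CAB39L (1023 and 1011 bases without the stop codon) were identical at 75% of 1005 aligned bases. Their longest identical stretch was 17 bases, which is shorter than the shortest selected fragment of 18 nt, so no perfectly matching fragment of the coding sequence can come from both. The AMPK pairs shared longer stretches, 24 bases in PRKAA1 and PRKAA2 (71.3% identical) and 20 bases in PRKAB1 and PRKAB2 (69.2%). At a typical footprint length of 28 bases, 0 of the 984 windows of the CAB39L coding sequence occurred in a transcript of another gene. The same count was 0 for STK11, PRKAG1 and both genes of the alpha and beta pairs. For CAB39 it was 6 of 996, all in the pseudogene CAB39P1. STRADB differed from the rest, with 918 of 1227 windows (74.8%) also present in 2 other annotated loci, among them the pseudogene STRADBP1. Its counts are uncertain, since the handling of reads with several matches is not given in the sources used here. Matches with mismatches were not searched.

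CAB39L mRNA was 3.41-fold lower in the knockout-labelled line while its footprints were 2.12-fold higher. CAB39L, on chromosome 13 (49308650 to 49401599, minus strand, transcript ENST00000355854, GRCh38), had 289 RNA counts (53.2 CPM) in the OE-labelled library and 115 (16.9 CPM) in the knockout-labelled one. Its footprints went the other way, with 34 counts (12.4 CPM) and 88 counts (27 CPM). The OE-labelled library was thus the high one in RNA and the low one in footprints, and neither pair of CPM intervals overlapped.

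The CAB39L log2 ratio was -1.77 in mRNA (-2.10 to -1.46) and 1.08 in footprints (0.51 to 1.71). The footprint ratio over the mRNA ratio, called translational efficiency here, was 2.85 (2.21 to 3.50), or 7.23-fold higher in the knockout-labelled line. Among 7260 genes with a mean count of at least 50 in each assay, lower mRNA together with higher footprints, each at least 2-fold, was found for CAB39L alone (0.0138%). Counting intervals below 0 in mRNA and above 0 in footprints were found for 4.05% of these genes. As CAB39L was picked for this, nothing is read from either share. With 5 added to each count, the footprint ratio was 0.98, just under 2-fold.

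**Figure D1:**
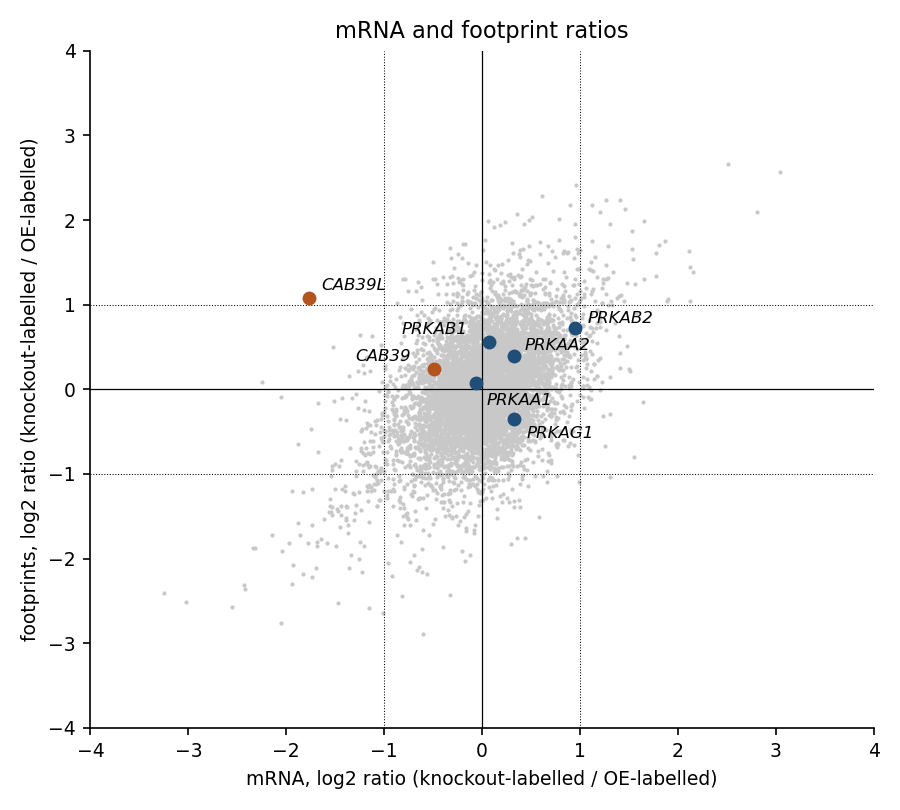
Log2 ratios (knockout-labelled over OE-labelled) of mRNA on the x axis and footprints on the y axis, with 1 grey point per gene measured in both assays (7255 shown, 5 lie beyond the axes). CAB39 and CAB39L are in orange and AMPK subunits in blue; CAB39L lies at -1.77 and 1.08, past the dotted 2-fold lines in the upper left corner.

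The paralogue CAB39, which encodes the alpha form of MO25, differed in the same directions but less. CAB39, on chromosome 2 (230713548 to 230818750, plus strand, transcript ENST00000409788), had 237 RNA counts (43.7 CPM) in the OE-labelled library and 230 (33.8 CPM) in the knockout-labelled one. Its footprints were 158 and 226 counts (57.8 and 69.3 CPM). The log2 ratio was -0.49 in mRNA (-0.76 to -0.22) and 0.24 in footprints (-0.06 to 0.54), the latter interval holding 0. Translational efficiency was 1.65-fold higher (log2 ratio 0.73, 0.33 to 1.12). Across all genes measured in both assays, 18.1% had mRNA below and footprints above 0 at any size, so the directions of CAB39 are common ones.

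Set against each other within a library, where scaling has no part, CAB39L outnumbered CAB39 in one RNA library and not in the other. CAB39L made up 54.9% of the pair's RNA counts in the OE-labelled library (Clopper-Pearson 95% interval 50.6 to 59.3) and 33.3% in the knockout-labelled library (28.4 to 38.6). In footprints its share was 17.7% (12.6 to 23.9) and 28% (23.1 to 33.3). The log2 ratio of CAB39L to CAB39 differed by -1.28 (-1.69 to -0.88) between the RNA libraries and by 0.84 (0.21 to 1.48) between the footprint libraries, knockout-labelled minus OE-labelled. CAB39 therefore supplied most of the pair's footprints in both lines. The shares are of counts, and the listed CAB39L transcript has 2665 noncoding bases against 603 in that of CAB39. As the counted part of the transcript is not known, noncoding reads may enter the RNA shares. Per kilobase of whole transcript, CAB39 was above CAB39L in the OE-labelled RNA library too (26.8 against 14.5 CPM per kilobase). These values use the length of the 1 listed transcript per gene. GENCODE has 4 coding transcripts of CAB39 and 10 of CAB39L, and other lengths were not tried. The pair's summed counts were 526 and 345 in RNA and 192 and 314 in footprints, log2 ratios of -1.05 (-1.25 to -0.85) and 0.43 (0.17 to 0.70).

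**Figure D2:**
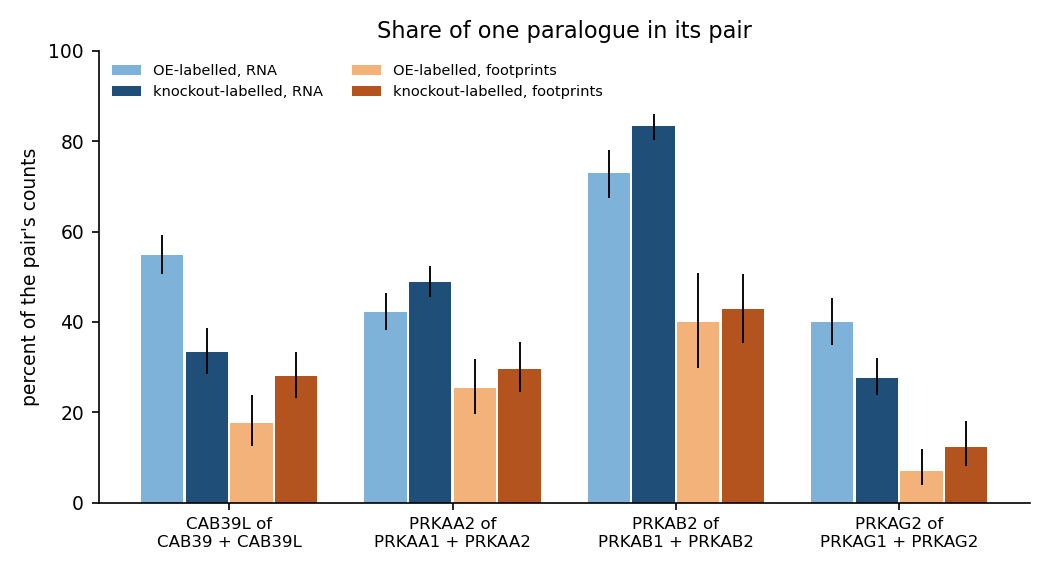
Percent of a paralogue pair's counts that belong to the named gene, in each of the 4 libraries; bars are shares and lines Clopper-Pearson 95% intervals. The share of CAB39L goes from 54.9% to 33.3% in RNA and from 17.7% to 28% in footprints. That of PRKAG2 also falls in RNA (40% to 27.7%) and rises in footprints (7.1% to 12.4%, with overlapping intervals). Each named gene has a lower share of footprints than of RNA in either line. The part of the longer noncoding sequence of CAB39L, PRKAA2 and PRKAB2 in this was not tested.

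Within each line, footprint CPM over RNA CPM was taken relative to the median of the 7260 genes. As the counted part of the transcript is not known, noncoding reads may enter the RNA counts, and their part was not tested. The values thus do not show which line departs from the usual level of CAB39L. CAB39L stood at -2.34 (-2.92 to -1.84) in the OE-labelled line, where 2.02% of genes were lower. In the knockout-labelled line it stood at 0.49 (0.07 to 0.90), above 71% of genes. CAB39 stood at 0.14 (-0.16 to 0.44) and 0.85 (0.58 to 1.12). In the knockout-labelled line the intervals of the paralogues overlapped, and in the OE-labelled line they did not. Of all genes measured in both assays, 1.67% had an interval below the median gene in the OE-labelled line and above it in the knockout-labelled line, as CAB39L did. As CAB39L was picked for a closely related contrast, nothing is read from this share.

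**Figure D3:**
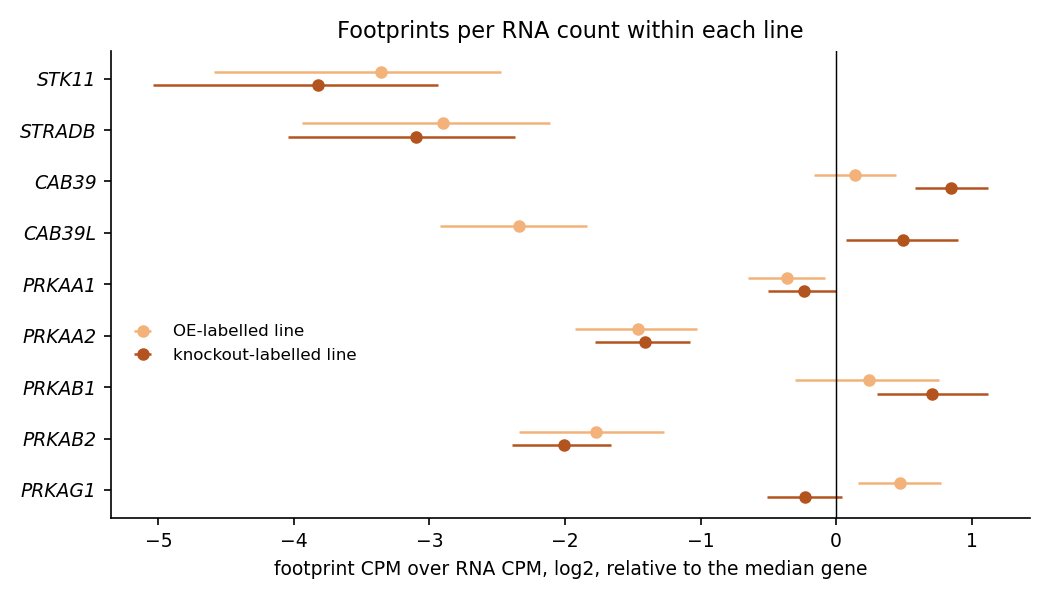
Footprint CPM over RNA CPM of each gene in each line, on a log2 scale relative to the median gene (vertical line), with 95% counting intervals. CAB39L lies at -2.34 in the OE-labelled line and 0.49 in the knockout-labelled line, while STK11 and STRADB lie at or below -2.90 in both. The median is over genes that reach the minimum count in both assays, which STK11 and STRADB do not.

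STK11, the gene of the LKB1 kinase itself, had few footprints for its RNA in both lines. STK11, on chromosome 19 (1206464 to 1228435, plus strand, transcript ENST00000326873), had 161 RNA counts (29.7 CPM) in the OE-labelled library and 245 (36 CPM) in the knockout-labelled one. It had 9 footprint counts in each, or 3.29 and 2.76 CPM. The mRNA log2 ratio was 0.16 (-0.13 to 0.46), an interval that holds 0, and the footprint counts were below the minimum. At this depth, the footprint interval (-1.78 to 1.23) does not separate a 2-fold difference in either direction from none. Relative to the median gene its footprints per RNA stood at -3.36 (-4.59 to -2.47) and -3.82 (-5.04 to -2.94). That median is over genes with a mean count of at least 50 in each assay. STK11 and STRADB do not reach this in footprints, so the reference leaves out genes with as few footprints. In GENCODE, 149 noncoding exonic bases of the STK11 transcript overlap CBARP on the opposite strand. As the use of strand is not known, reads of CBARP there cannot be told apart from those of STK11, and their part in this value was not tested.

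STRADB, which encodes one of the pseudokinases that activate LKB1, showed the same picture. STRADB, on chromosome 2 (201451669 to 201480846, plus strand, transcript ENST00000194530), had 154 and 228 RNA counts (28.4 and 33.5 CPM) and 12 and 14 footprint counts (4.39 and 4.29 CPM). Its mRNA log2 ratio was 0.12 (-0.18 to 0.43). Footprints per RNA stood at -2.90 and -3.10 relative to the median gene. Most of its 28-base windows occur elsewhere, as given above, and the part of that in its low footprint counts was not tested. For STK11, none of 1272 such windows did.

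**Figure D4:**
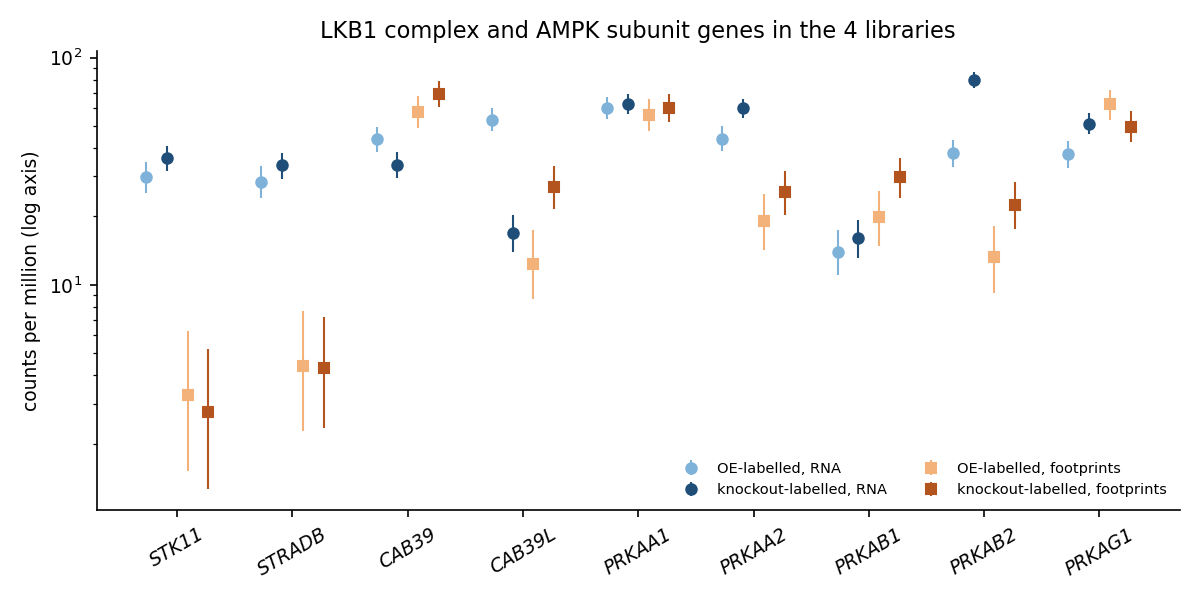
CPM (log axis) of the 9 genes in the 4 libraries, circles for RNA and squares for footprints, with exact Poisson 95% intervals. STK11 and STRADB footprints lie between 2.76 and 4.39 CPM, below every other value, and CAB39L is the one gene whose RNA and footprint points cross over between the lines with no overlap of intervals in either assay.

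Among the AMPK subunits, the beta subunit gene PRKAB2 differed most in mRNA. PRKAB2, on chromosome 1 (147155106 to 147172544, minus strand, transcript ENST00000254101), encodes a scaffold subunit that carries a glycogen-binding domain. It had 206 RNA counts (37.9 CPM) in the OE-labelled library and 543 (79.7 CPM) in the knockout-labelled library, and 36 and 73 footprint counts (13.2 and 22.4 CPM). The log2 ratio was 0.95 in mRNA (0.72 to 1.19), 1.93-fold higher, and 0.73 in footprints (0.15 to 1.36), 1.66-fold higher. Both assays thus gave the knockout-labelled library as the higher one. Scaled by total counts, the mRNA ratio was 1.07 and passed 2-fold. Translational efficiency was -0.22 (-0.84 to 0.40).

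The other beta subunit gene, PRKAB1, on chromosome 12 (119667753 to 119681630, plus strand, transcript ENST00000229328), had 76 and 109 RNA counts (14 and 16 CPM) and 54 and 97 footprint counts (19.8 and 29.8 CPM). Its log2 ratio was 0.07 in mRNA (-0.36 to 0.52) and 0.56 in footprints (0.07 to 1.08). PRKAB2 supplied 73% of the beta pair's RNA counts in the OE-labelled library (67.5 to 78.1) and 83.3% in the knockout-labelled one (80.2 to 86.1). Of the pair's footprints it supplied 40% (29.8 to 50.9) and 42.9% (35.4 to 50.7). The listed transcripts have 4601 noncoding bases in PRKAB2 and 1800 in PRKAB1, whose part in the gap between RNA and footprint shares was not tested. The log2 ratio of PRKAB2 to PRKAB1 differed by 0.88 (0.40 to 1.36) between the RNA libraries, and by 0.17 between the footprint libraries, with an interval that holds 0 (-0.58 to 0.92). In GENCODE, 137 noncoding exonic bases of the PRKAB1 transcript overlap a gene on the opposite strand.

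The catalytic alpha subunits were nearer to 0. PRKAA1, on chromosome 5 (40759379 to 40798198, minus strand, transcript ENST00000397128), had 326 and 426 RNA counts (60 and 62.5 CPM) and 153 and 196 footprint counts (56 and 60.1 CPM). Its log2 ratio was -0.06 in mRNA (-0.27 to 0.15; 0.06 when scaled by total counts) and 0.08 in footprints (-0.23 to 0.40). PRKAA2, on chromosome 1 (56645322 to 56715335, plus strand, transcript ENST00000371244), had 239 and 408 RNA counts (44 and 59.9 CPM) and 52 and 83 footprint counts (19 and 25.5 CPM). Its log2 ratio was 0.33 in mRNA (0.09 to 0.56) and 0.39 in footprints (-0.12 to 0.93). PRKAA2 held 42.3% of the alpha pair's RNA counts in the OE-labelled library and 48.9% in the knockout-labelled one, against 25.4% and 29.7% of the footprints, with 7691 noncoding bases in its listed transcript and 3411 in that of PRKAA1. Footprints per RNA of PRKAA2 stood at -1.46 and -1.41 relative to the median gene, against -0.36 and -0.24 for PRKAA1.

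The gamma subunit gene PRKAG1, whose product binds the adenine nucleotides, was the one gene of the set with a translational efficiency interval below 0. PRKAG1, on chromosome 12 (49002281 to 49018825, minus strand, transcript ENST00000548065), had 204 and 349 RNA counts (37.6 and 51.2 CPM) and 170 and 162 footprint counts (62.2 and 49.7 CPM). The log2 ratio was 0.33 in mRNA (0.08 to 0.59) and -0.35 in footprints (-0.67 to -0.03). Efficiency was 1.60-fold lower (log2 ratio -0.67, -1.07 to -0.28). Its directions were the reverse of those of CAB39 and CAB39L, and its differences were smaller than those of CAB39L. In GENCODE, 94 exonic bases of the transcript, 9 of them coding, overlap the opposite-strand gene DDN-AS1. PRKAG2, the other gamma subunit gene measured in RNA, had 136 and 134 RNA counts and 13 and 23 footprint counts. Its mRNA log2 ratio was -0.47 (-0.82 to -0.11), and its footprints were below the minimum. As for CAB39L in its pair, the PRKAG2 share of the gamma pair was lower in the knockout-labelled RNA library (40% against 27.7%). In footprints it was higher there (7.1% against 12.4%), with overlapping intervals. PRKAG3 had 1 RNA count in the knockout-labelled library and none elsewhere.

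Counted together, 1 of the 9 genes (CAB39L) was at least 2-fold different in mRNA, against 6.48% of 9855 genes. In footprints, 7 genes passed the minimum and 1 (CAB39L) was at least 2-fold different, against 9.09% of 7323 genes. In translational efficiency it was 1 of 7 (CAB39L), against 7.25% of 7260 genes. As CAB39L was chosen for its ratios, nothing is read from these 2-fold counts. Without CAB39L, log2 ratios lay between -0.49 and 0.95 in mRNA (8 genes) and between -0.35 and 0.73 in footprints (6 genes). The counting interval left out 0 for 5 of 9 genes in mRNA, 4 of 7 in footprints and 3 of 7 in efficiency. CAB39L is among the genes counted in each. Over all genes the share with such an interval was 55.7%, 57.3% and 45.6%, so these counts are near the background. Medians over the set, CAB39L included, were 0.12 in mRNA (9 genes) and 0.39 in footprints (7 genes, without STK11 and STRADB). Those over all genes were 0.01 and 0.02. The footprint median of the set is the value of PRKAA2, whose interval holds 0 (-0.12 to 0.93). Scaling by total counts moved the median mRNA ratio of all genes to 0.13. It also changed the split of genes past 2-fold from 295 higher and 344 lower to 408 and 261.

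Per kilobase of coding sequence, the order of RNA levels differed between the lines. In the OE-labelled library CAB39L stood first at 52.7 CPM per kilobase (46.8 to 59.1), followed by PRKAB2 at 46.5 (40.4 to 53.3), CAB39 at 42.7, PRKAG1 at 37.8, PRKAA1 at 35.8, PRKAA2 at 26.6, STK11 at 22.8, STRADB at 22.6 and PRKAB1 at 17.3. In that order, the only neighbours with intervals that do not overlap were PRKAA1 and PRKAA2. In the knockout-labelled library PRKAB2 stood first at 97.7 (89.6 to 106), above PRKAG1 at 51.6 (46.3 to 57.3), and CAB39L was last at 16.7 (13.8 to 20), within counting error of PRKAB1 at 19.8. In footprints PRKAG1 and CAB39 led in both lines, at 62.6 and 56.5 in the OE-labelled and 50 and 67.8 in the knockout-labelled library. CAB39L was sixth of 9 in both footprint libraries, at 12.3 and 26.7. The order depends on the length used, as the counted part of the transcript is not given in the sources used here. Per kilobase of whole transcript, CAB39 led the OE-labelled RNA library at 26.8, CAB39L was the third at 14.5, and CAB39L was again last in the knockout-labelled one at 4.59. There PRKAG1 led at 30.1, CAB39 followed at 20.8, and PRKAB2 was the third at 14.7.

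Genes that neighbour CAB39L on chromosome 13 were mostly lower in the knockout-labelled line in both assays. Of the 10 nearest measured in RNA, 5 on each side, the median log2 ratio was -0.49 in mRNA, from -1.34 to -0.09, and -0.61 in footprints (8 measured). Over chromosome 13 as a whole the medians were -0.22 (173 genes) and -0.19 (132 genes). The lowest neighbour in mRNA was SETDB2, which encodes a histone methyltransferase-family protein, with 273 and 147 RNA counts (-1.34, -1.64 to -1.04). Its footprints, 33 and 19 counts, were below the minimum and stood at -1.06. KPNA3, an importin gene, was lower in both assays (-0.84 and -1.40). No neighbour measured in footprints stood above 0.19 there, while CAB39L stood at 1.08. SETDB2 stood at -2.30 in the OE-labelled line and -2.04 in the knockout-labelled line in footprints per RNA.

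**Figure D5:**
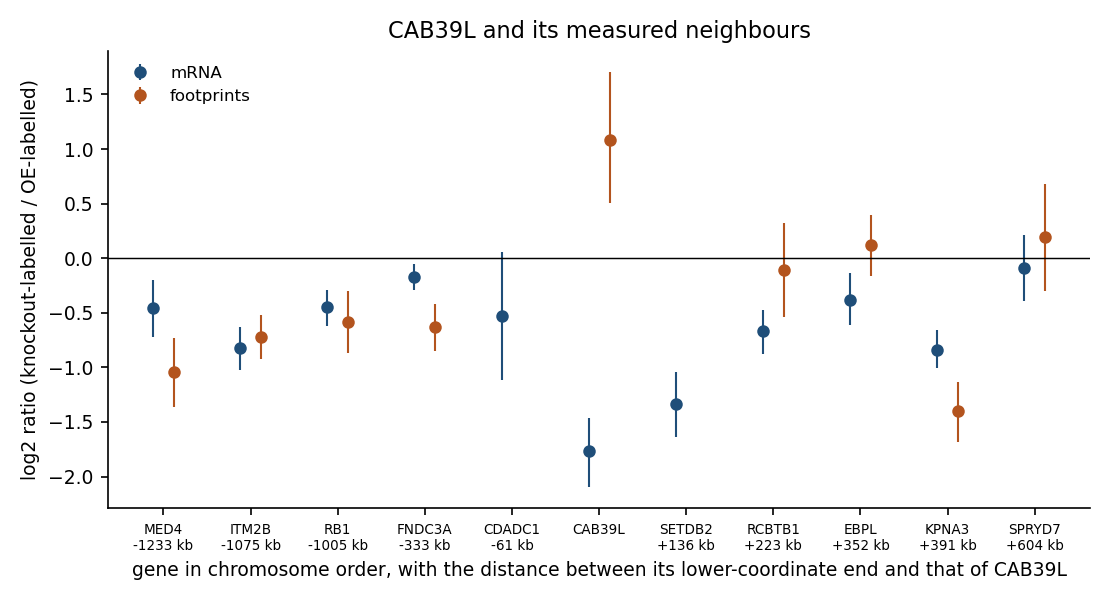
Log2 ratios of mRNA (blue) and footprints (orange) for CAB39L and the 10 nearest measured genes, in chromosome order with their distance in kilobases; lines are 95% counting intervals, and footprints under the minimum count are left out. All 11 mRNA ratios lie below 0, and the footprint ratio of CAB39L, 1.08, lies above those of the neighbours.

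The genes whose pair of ratios lay nearest to that of CAB39L, by Euclidean distance over the mRNA and footprint log2 ratios of the 4 libraries, were NELFA (distance 0.63), CDK5 (0.68), POLR3K (0.79), CADM4 (0.90) and TMEM160 (0.92). NELFA had 136 and 64 RNA counts and 82 and 141 footprint counts, log2 ratios of -1.53 and 0.50. CDK5 had ratios of -1.25 and 0.65. CADM4, with 195 and 145 RNA counts and 36 and 89 footprint counts, had the footprint ratio nearest to that of CAB39L (1.02) but a smaller mRNA ratio (-0.87). In the OE-labelled line, footprints per RNA of NELFA and CDK5 stood at 0.00 and 0.13, against -2.34 for CAB39L, while CADM4 stood at -1.69. The genes nearest to CAB39 (DCTPP1, ACP1, ARMC1, TIMM8A and ERGIC2) lay within a distance of 0.02.

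Of 50 other genes in lists of the pathway, 45 were measured in mRNA. Past 2-fold, 0 were higher and 3 lower there, against 2.99% and 3.49% of all genes. In footprints 1 of 30 was at least 2-fold higher and 1 lower, against 4.66% and 4.44%, and in efficiency 3 and 1 of 30, against 3.65% and 3.6%. Their medians were 0.03, -0.07 and -0.12.

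Other kinases that bind MO25 did not share one direction in mRNA. Of the 5 in the list, 0 passed 2-fold in any measure. Medians were 0.03 in mRNA, -0.39 in footprints and -0.50 in efficiency. In efficiency all 5 lay below 0, from -0.82 (STK25) to -0.01 (STK24, 0.04 with upper-quartile scaling). STK25 stood at 0.03 in mRNA and -0.78 in footprints, and STK39 at -0.12 and -0.63. STK24 stood at 0.07 and 0.06 (1930 and 2767 RNA counts) and STK26 at -0.18 and -0.39, while OXSR1 stood at 0.49 and -0.18. Among AMPK-related kinases that LKB1 activates, 9 were measured in mRNA with a median of -0.25. NUAK1 (213 and 138 RNA counts, -1.07) and SIK1 (119 and 79, -1.03) were at least 2-fold lower, against 3.49% of 9855 genes. Scaled by total counts they stood at -0.95 and -0.92, short of 2-fold, and their footprints were below the minimum. MARK3, a polarity kinase gene, stood at 0.56 in mRNA and 0.88 in footprints, and MARK2 at 0.68 and 0.38.

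Of the genes for other AMPK-activating kinases and AMPK phosphatases, 7 were measured in mRNA, with a median of -0.08 and 0 past 2-fold. In efficiency 2 of 4 were at least 2-fold higher, against 3.65% of 7260 genes. These were MAP3K7, the gene of the kinase TAK1, with 218 and 233 RNA counts and 60 and 134 footprint counts (efficiency 1.23, 0.71 to 1.74), and PPP2R5C, a regulatory subunit of phosphatase 2A (1.24, 0.95 to 1.53). PPP2CA, its catalytic subunit, stood at 0.32 in mRNA and -0.13 in footprints.

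AMPK substrates had medians of 0.08 in mRNA (14 measured) and -0.31 in footprints (11 measured). TBC1D4, a regulator of glucose transporter traffic, was at least 2-fold lower in both assays, with 450 and 232 RNA counts (-1.40, -1.64 to -1.17) and 251 and 138 footprint counts (-1.14, -1.45 to -0.83). RPTOR, the mTORC1 scaffold gene, stood at 0.39 in mRNA and -0.90 in footprints (efficiency -1.28, -1.75 to -0.82). FOXO3 stood at 0.23 and -0.76, and GFPT1, an enzyme gene of hexosamine synthesis, at 0.48 and 0.41. Regulators of energy and nutrient sensing had medians of 0.09 and 0.25 (9 and 7 measured). AK1, an adenylate kinase gene, stood at -0.46 and 0.60 (efficiency 1.06, 0.66 to 1.46; 0.97 when scaled by total counts). SESN2, which encodes a stress-induced leucine sensor, stood at 0.74 and 0.69.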

How the data were processed

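The authors deposited raw counts, whole numbers for 19192 genes with 1 transcript named beside each gene, as the file headers show. Size selection kept footprints between 18 and 34 nt and RNA pieces between 18 and 50 nt, per the labels' protocols, which also give random identifiers in the linkers and 15 cycles of PCR. The submitters' processing notes name GRCh38, HISAT2 2.1.0, Bowtie 1.1.2 and cutadapt 1.10. No source used here states the counter, the counted region, the use of strand or whether identical identifiers were collapsed, so intervals may be too narrow.

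Counts were scaled within each assay by TMM (edgeR 4.0.16, R 4.3.3), genes needed a mean count of 50, and 0.5 was added for log2 ratios. Ratio intervals are exact conditional binomial, those of efficiency and of paralogue differences Wald. CPM uses total counts. Other scalings (total counts, upper quartile, size factors of DESeq2 1.42.0), minimums, thresholds and added counts were tried. Ratio steps were tested on simulated data. Named genes are the 9 found, the 5 nearest to CAB39L and to CAB39, 10 neighbours, and, per list, genes past 2-fold and the 2 with most RNA counts, of which 1 is not reported here. OXSR1, STK25, STK39, PRKAG2, PRKAG3, CD68 and CDH1 were named outside that rule after their values were seen. Members and lists were chosen with earlier results of these data known. Transcripts were matched to GENCODE release 29 (19176 found), and alignments used Biopython 1.88.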

Additional observations from a re-analysis of the deposited data

Results flagged for a closer look

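CAB39L stood on opposite sides of the median gene in the lines: its footprints per RNA were at -2.34 in the OE-labelled line and at 0.49 in the knockout-labelled line (log2). Each line has 1 library per assay, so this difference was not tested. The gene was chosen for a closely related contrast, and the value is a description.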

How the results depend on the processing

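Under DESeq2 size factors, total counts, upper-quartile scaling and 5 added to each count, all 12 alternative log2 ratios of CAB39L and all 96 of the other 8 genes stayed inside the reported counting intervals. A change of scaling moves all genes of an assay alike, so these are not separate checks. The 96 include footprint and efficiency ratios of STK11 and STRADB, whose footprints are below the minimum. CAB39L ranged from -1.79 to -1.65 in mRNA, 0.98 to 1.11 in footprints and 2.71 to 2.90 in efficiency. The sign changed for PRKAA1 in mRNA (-0.08 to 0.06) and PRKAA2 in efficiency (-0.03 to 0.12). With total counts, 2 of the 9 genes passed 2-fold in mRNA (CAB39L and PRKAB2), beside 669 of 9855 over all genes. With 5 added, 0 of 7 passed in footprints, beside 569 of 7323. A minimum of 200 left 0 of the 9 genes measured in footprints and efficiency. At 1.5-fold, 2 of 9 passed in mRNA, 2 of 7 in footprints and 3 of 7 in efficiency. Over all genes these were 2074 of 9855, 2125 of 7323 and 1911 of 7260. At 3-fold, 0 of 7 passed in footprints, beside 135 of 7323. Over all genes, counts past the threshold in mRNA, footprints and efficiency were 639, 666 and 526 of 9855, 7323 and 7260 as reported. With a minimum of 10 they were 1463, 1908 and 1777 of 12225, 10744 and 10658. With 200 they were 181, 131 and 41 of 5815, 2977 and 2906. With none they were 3933, 4007 and 3581 of 15499, 13509 and 13250. At the reported minimum they were 2074, 2125 and 1911 at 1.5-fold and 127, 135 and 77 at 3-fold. No paired analysis was possible because each line has 1 library per assay; for the same reason no library could be left out. The 9 footprint counts of STK11 and the 12 and 14 of STRADB limit what can be said of their translation.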
